A study of Mus musculus with 16 samples.

Results

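The miR-221 and miR-222 cluster was examined in the cortex of tauopathy mice. Its members were the 3 rows of the deposited small RNA table named mmu-miR-221-3p, mmu-miR-221-5p and mmu-miR-222-3p, out of 1241 rows of mature miRNAs and 18488 rows in all. They were chosen by name. The 16 small RNA libraries were made from 10 mg of prefrontal cortex each. The 8 PS19 mice carried 1 copy of a transgene for human tau (MAPT) with the P301S mutation (genotype PS19+/-), driven by the mouse prion protein promoter, and the 8 wild-type (WT) mice were littermates without it. All were about 9.6 months old, and the study compared the groups to follow RNA changes in tau-driven neurodegeneration. Per the methods, each group held equal numbers of males and females, but the labels do not tie a library to a sex, so that the cluster, which lies on the X chromosome, was not compared by sex.

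MicroRNAs (miRNAs) are short RNAs cut from a hairpin in the primary transcript. The 5′ or the 3′ arm of the hairpin (5p and 3p in the names) is loaded into Argonaute and pairs with target mRNAs mainly through its seed, which lowers their stability and translation. miR-221-3p and miR-222-3p are known for targeting the cell cycle inhibitor p27 (Cdkn1b) and the receptor Kit, and they are well described in endothelium, vascular smooth muscle and proliferating cells.

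The mature sequences are shown because miR-221-3p and miR-222-3p share a seed and miR-221-5p does not. They were taken from RefSeq (GRCm38.p6), with the seed (bases 2 to 8) in capitals.

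mmu-miR-221-3p: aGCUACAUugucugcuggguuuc

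mmu-miR-222-3p: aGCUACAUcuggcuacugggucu

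mmu-miR-221-5p: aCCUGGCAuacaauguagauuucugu

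The first 8 bases of miR-221-3p and miR-222-3p were the same, and 11 of their 23 positions matched without gaps. Among the 1679 mature mouse miRNAs of the RefSeq table, the seed they share was found in 1 other, mmu-miR-1928, which was not analysed here. The seed of miR-221-5p was found in no other entry of that table. The hairpins are shown next, with the members in capitals, because miR-221-3p and miR-221-5p come from 1 hairpin and can be compared within it.

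Mir221: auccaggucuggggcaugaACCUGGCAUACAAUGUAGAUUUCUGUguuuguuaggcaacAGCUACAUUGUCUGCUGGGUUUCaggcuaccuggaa

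Mir222: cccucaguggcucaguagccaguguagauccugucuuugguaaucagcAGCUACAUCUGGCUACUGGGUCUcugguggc

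Both hairpins lie on the minus strand of the X chromosome in GRCm38, Mir221 at chrX:19146294-19146388 and Mir222 at chrX:19146893-19146971, with 504 bases between them. The mature positions are chrX:19146307-19146329 for miR-221-3p, chrX:19146344-19146369 for miR-221-5p and chrX:19146901-19146923 for miR-222-3p. In GENCODE M21 no gene other than the hairpins overlapped the cluster (0 genes), so the members are intergenic in that annotation. The nearest gene was the processed transcript Gm14636, 10009 bases away on the same strand.

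Reads assigned to small RNAs numbered 13.2 M to 23.1 M per library. Mature miRNAs made up 17.9% to 32.0% of the signal in PS19 libraries and 14.8% to 32.0% in WT libraries. Values are normalized counts, that is, reads that the authors divided by 1 size factor per library. No 2 libraries of a group agreed within sampling noise. Per the methods each group was 8 mice, and p-values measure the spread between their libraries. Neuronal miRNAs were found in every library. miR-124-3p, miR-128-3p and miR-9-5p summed to 293975 normalized counts in the lowest PS19 library and 340987 in the lowest WT library. Most of this was miR-128-3p, averaging 506408 in PS19 and 466399 in WT, and miR-9-5p, at 148691 and 165071. miR-124-3p averaged 11604 in PS19 and 11824 in WT, with lowest values of 5333 and 6222. Of 3 red blood cell miRNAs, miR-486a-5p averaged 962 in PS19 and 989 in WT, miR-451a 18.02 and 13.21, and miR-144-3p 0.210 and 0.476.

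miR-222-3p was the most abundant member, ranking 31 of 1241 mature miRNAs by mean and between 28 and 39 in single libraries. miR-221-3p ranked 49 by mean (39 to 55), and miR-221-5p ranked 138 (110 to 147). Over the 16 libraries the mean ± SD was 21481 ± 7879 normalized counts for miR-222-3p, 9596 ± 4560 for miR-221-3p and 806 ± 334 for miR-221-5p. The order of the 3 members was the same in all 16 libraries. The lowest number of reads behind any value was 420, for miR-221-5p, so counting error was at most 4.88% of a value, against a coefficient of variation of 41.4% between libraries for that miRNA.

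None of the 3 members differed between PS19 and WT cortex beyond the spread between libraries. The fitted differences were small and all below 0, and the level of miR-221-5p came nearest to separating the genotypes. In WT libraries miR-221-5p ranged from 420 through a median of 1038 to 1346 normalized counts, and in PS19 libraries from 333 through 687 to 942. The 5 highest WT libraries lay above all 8 PS19 libraries, but WT replicates 6 and 7, at 420 and 436, lay below 7 of the 8 PS19 libraries, so the groups overlapped. All 8 PS19 libraries lay below the WT median, a pattern held by 1.92% of the 521 tested mature miRNAs and 1.20% of all tested small RNAs. The fitted log2 difference, PS19 minus WT, was -0.42 ± 0.30 (SE, n = 8 and 8; limma on log2(value + 1), 95% interval -1.03 to 0.19, unadjusted p = 0.168).

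miR-221-3p ranged from 4461 through a median of 10600 to 17498 normalized counts in WT and from 4535 through 7513 to 19738 in PS19. The highest of all 16 libraries was PS19 replicate 1, at 19738, while the other 7 PS19 libraries lay at or below 9399. The groups overlapped over nearly their whole range. The log2 difference was -0.31 ± 0.30 (SE; limma, 95% interval -0.93 to 0.31, unadjusted p = 0.313). Single libraries moved it to -0.50 without PS19 replicate 1, -0.47 without WT replicate 7, -0.20 without PS19 replicate 8 and -0.19 without WT replicate 3.

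miR-222-3p ranged from 12513 through 21907 to 31354 in WT and from 8418 through 21338 to 38420 in PS19. PS19 libraries were both the lowest (replicates 7 and 8) and the highest (replicate 1), and the medians were nearly equal. The log2 difference was -0.12 ± 0.27 (SE; limma, 95% interval -0.69 to 0.45, unadjusted p = 0.664). It changed sign, to 0.050, without PS19 replicate 7, and was -0.0091 without PS19 replicate 8 and -0.036 and -0.046 without WT replicates 1 and 3. It grew to -0.26 without PS19 replicate 1, and to -0.23 and -0.19 without WT replicates 7 and 6.

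**Figure D1:**
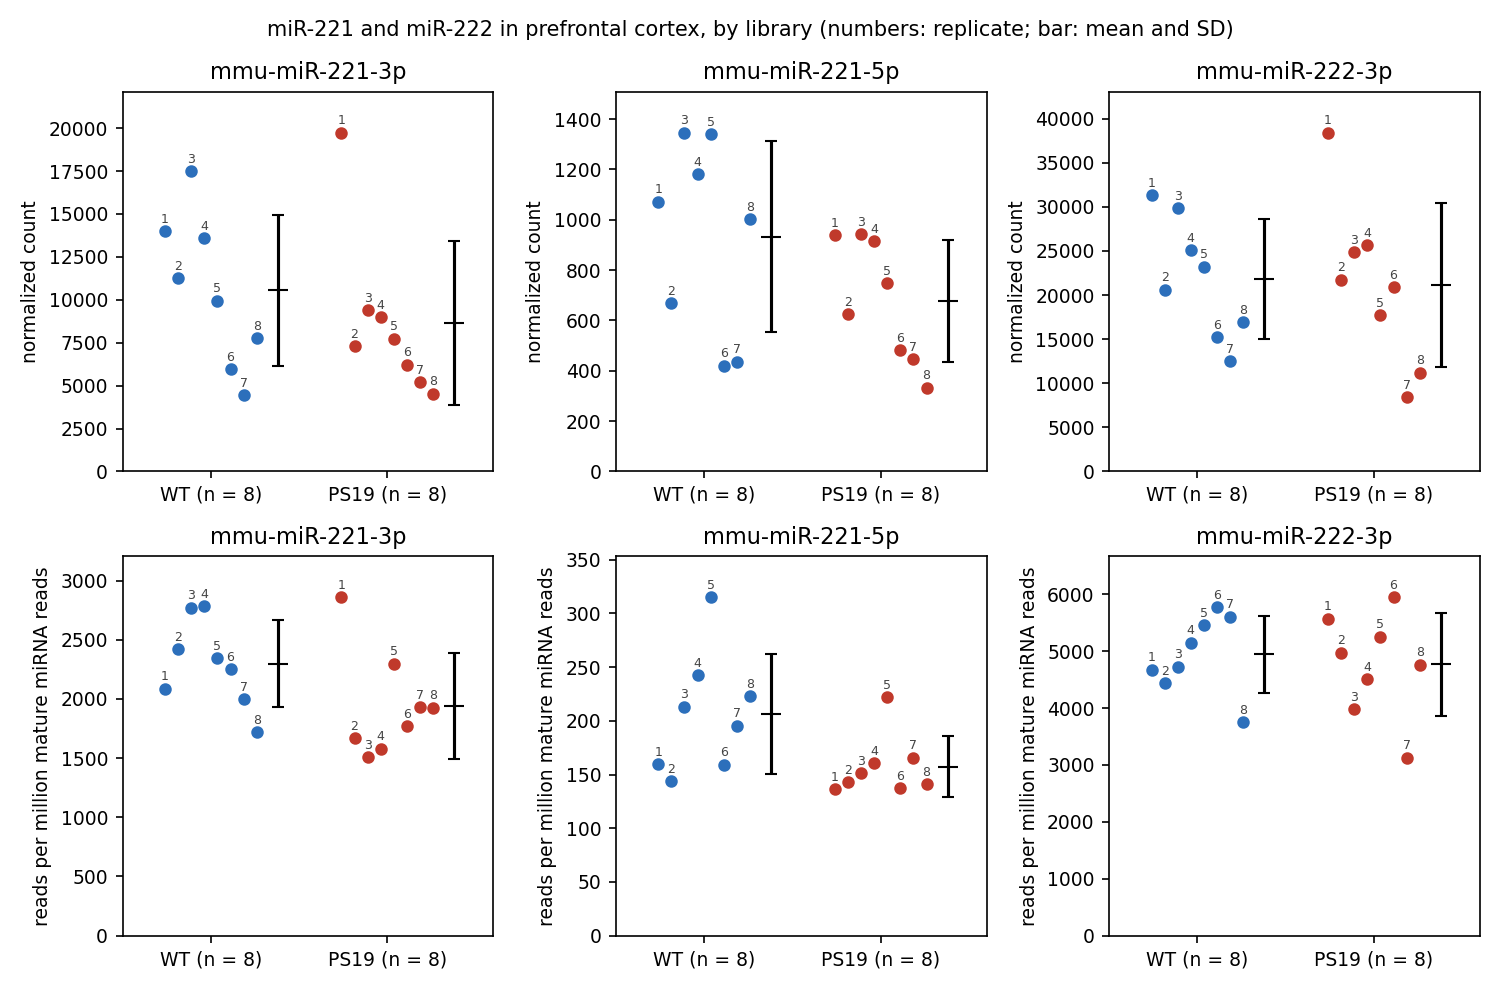
Level of each member in every library, as normalized counts (upper row) and as reads per 1000000 mature miRNA reads (lower row), for WT (blue) and PS19 (red), numbered by replicate, with the mean and SD beside them. The groups overlap in every panel, PS19 replicate 1 stands at 19738 for miR-221-3p, and 5 WT libraries lie above all PS19 libraries for the normalized count of miR-221-5p.

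After Benjamini-Hochberg adjustment over the 6024 tested small RNAs, the limma p-value was 0.9998 for each member. No small RNA passed 0.05 after that adjustment (0.00%). On the recovered reads edgeR called 0, with a lowest adjusted p-value of 0.097, while DESeq2, run without its outlier cutoff, called 15. Unadjusted limma p-values under 0.05 went to 129 small RNAs that were lower in PS19 (2.14%) and 112 that were higher (1.86%), and to 15 of the 521 mature miRNAs (2.88%). None of the 3 members was among them. A log2 difference below 0, as all 3 members had, was found for 66.4% of the tested mature miRNAs, whose median difference was -0.13, and for 53.2% of all tested small RNAs. The intervals of the members reached from a fold of 0.525 to 1.24 (PS19 over WT) for miR-221-3p, 0.488 to 1.14 for miR-221-5p and 0.621 to 1.36 for miR-222-3p.

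The first letter of the library code in the labels differed between groups, being G throughout PS19 (8 libraries) but G in 2, F in 4 and A in 2 of the WT libraries. What it stands for is not given. Within letter G, the 2 WT libraries held 11243 and 13576 normalized counts of miR-221-3p, above 7 of the 8 PS19 libraries. For miR-221-5p they held 668, inside the PS19 range, and 1182, above it. For miR-222-3p both, at 20610 and 25103, lay inside the PS19 range. With the letter as a term in limma, the difference of miR-221-3p grew to -0.66 ± 0.47 (SE, adjusted p = 0.9999), that of miR-221-5p was -0.48 ± 0.47 and that of miR-222-3p -0.24 ± 0.45. The unadjusted limma p-values of that fit were 0.177, 0.321 and 0.596. Letters F and A hold WT libraries only, so for them letter and genotype cannot be told apart.

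The level of each member followed how much of a library was miRNA at all. Across the 16 libraries the log2 level of miR-221-5p correlated with the log2 share of miRNA in the signal at r = 0.86, that of miR-221-3p at 0.83 and that of miR-222-3p at 0.79. These are descriptions, since each level is also a part of the share. When each small RNA class was scaled to its own total in every library, the same correlations were 0.17, 0.17 and -0.16. The ratio of the highest to the lowest library fell with that scaling from 4.42 to 1.90 for miR-221-3p, from 4.04 to 2.31 for miR-221-5p and from 4.56 to 1.91 for miR-222-3p. WT replicate 7, with the lowest miRNA share, was also the lowest library for miR-221-3p before scaling.

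**Figure D2:**
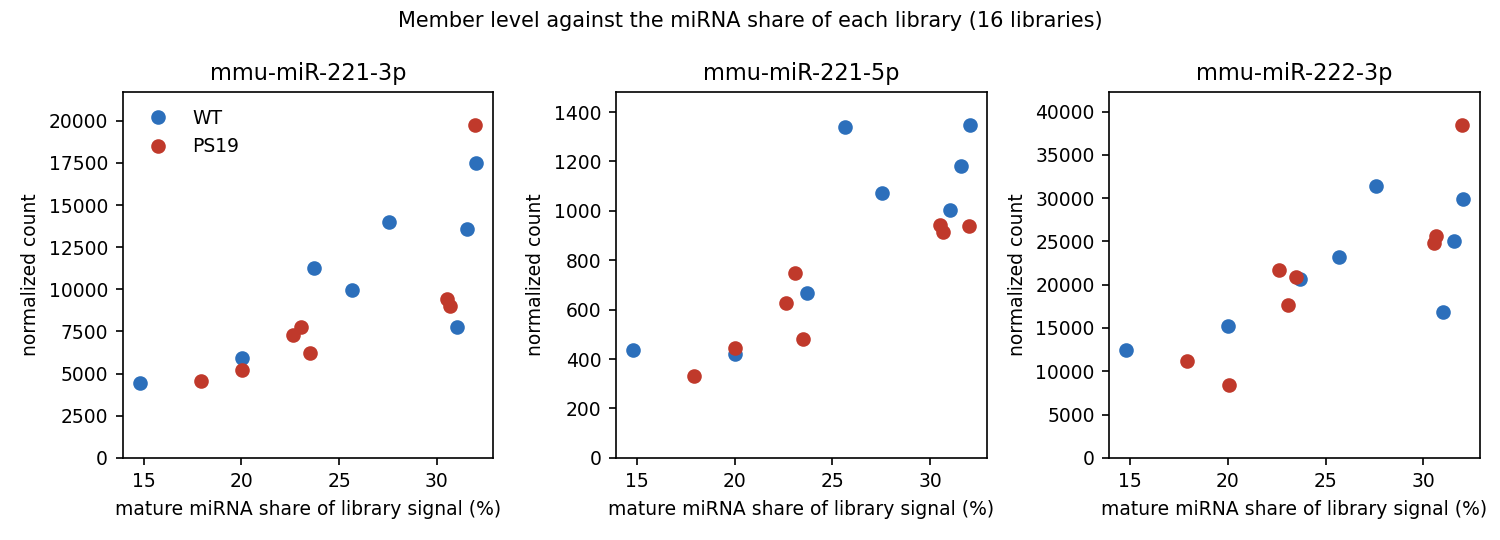
Normalized count of each member (vertical axis) against the percent of the library's signal held by mature miRNAs (horizontal axis), 1 point per library, WT in blue and PS19 in red. Counts are low in the libraries with the least miRNA, down to 14.8%, and highest near 32.0%.

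Relative to other miRNAs, miR-221-5p was lower in most PS19 libraries, though not after adjustment. Per 1000000 mature miRNA reads it ranged from 136 through a median of 147 to 222.01 in PS19 and from 144 through 204 to 315 in WT. Of the PS19 libraries, 4 lay below every WT library and only replicate 5, at 222.01, lay above the WT median, while 3 WT libraries lay above all PS19 libraries. In limma on the class-scaled values, where the class is all miRNA rows, hairpins included, the log2 difference was -0.37 ± 0.18 (SE, 95% interval -0.73 to -0.0028, unadjusted p = 0.0484, adjusted p = 0.9998). It was the only member with an unadjusted p-value under 0.05 on this scale, where 1.29% of 6496 small RNAs and 4.05% of 518 mature miRNAs had one and were lower in PS19. With 1 library left out at a time, a setting chosen after seeing the data, 4 of 16 limma fits kept it under 0.05, and without WT replicate 5 the difference was -0.27 (limma, unadjusted p = 0.125).

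Per 1000000 mature miRNA reads, miR-221-3p ranged from 1507 through 1848 to 2862 in PS19 and from 1722 through 2298 to 2785 in WT, and limma on the class-scaled values gave a log2 difference of -0.25 ± 0.15 (SE, unadjusted p = 0.0989). PS19 replicate 1 was again the highest library. With each library left out in turn on this scale, a setting added after seeing the data, 2 of 16 limma fits (without PS19 replicate 1 or WT replicate 8) gave miR-221-3p an unadjusted p-value under 0.05 and none an adjusted one. miR-222-3p ranged from 3128 through 4868 to 5952 on that scale in PS19 and from 3755 through 4939 to 5771 in WT, and its difference was -0.065 ± 0.14 (SE, limma, unadjusted p = 0.644).

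The arm balance of miR-221 was compared next, since both arms come from 1 hairpin and their ratio does not depend on how libraries are scaled. The 3′ arm exceeded the 5′ arm in every library, by 7.43 through a median of 12.2 to 16.8 times in WT and by 9.84 through 11.6 to 20.99 times in PS19. PS19 replicate 1 held the highest ratio and WT replicates 5 and 8 the lowest. The log2 ratio was 3.61 ± 0.36 in PS19 and 3.50 ± 0.41 in WT (SD, n = 8 each), a difference of 0.11 with an interval of -0.30 to 0.53 (two-sided exact permutation test over all assignments of 8 and 8 libraries, p = 0.573, adjusted over 4 tests p = 0.573). Leaving out PS19 replicate 1, the highest, brought the difference to 0.0013, WT replicate 5 to 0.025, WT replicate 8 to 0.033 and WT replicate 2 to 0.19.

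The pair that shares a seed was compared in the same way. miR-222-3p exceeded miR-221-3p in every library, by 1.71 through 2.21 to 2.80 times in WT and by 1.62 through 2.56 to 3.36 times in PS19. The log2 ratio of miR-221-3p over miR-222-3p was -1.30 ± 0.34 in PS19 and -1.11 ± 0.25 in WT, a difference of -0.19 with an interval of -0.51 to 0.14 (exact permutation p = 0.225, adjusted p = 0.53). Without PS19 replicate 6 it was -0.12. Their summed level, the total carrying the shared seed in these rows, ranged from 13614 through 28094 to 58157 normalized counts in PS19 and from 16974 through 32507 to 47364 in WT. The difference of its log2 was -0.17 with an interval of -0.82 to 0.47 (exact permutation p = 0.567, adjusted p = 0.573). It grew to -0.33 without PS19 replicate 1 and -0.30 without WT replicate 7, and shrank to -0.032 and -0.062 without PS19 replicates 7 and 8 and to -0.093 and -0.084 without WT replicates 1 and 3.

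The 3 members together made up 0.687% ± 0.115 of the mature miRNA signal in PS19 and 0.745% ± 0.0866 in WT (SD, n = 8 each). The difference was -0.058 percentage points with an interval of -0.168 to 0.052 (exact permutation p = 0.263, adjusted p = 0.53), and -0.035 points without PS19 replicate 7. The PS19 shares spanned 0.522% to 0.857% and the WT shares 0.570% to 0.818%, the PS19 range enclosing that of WT.

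**Figure D3:**
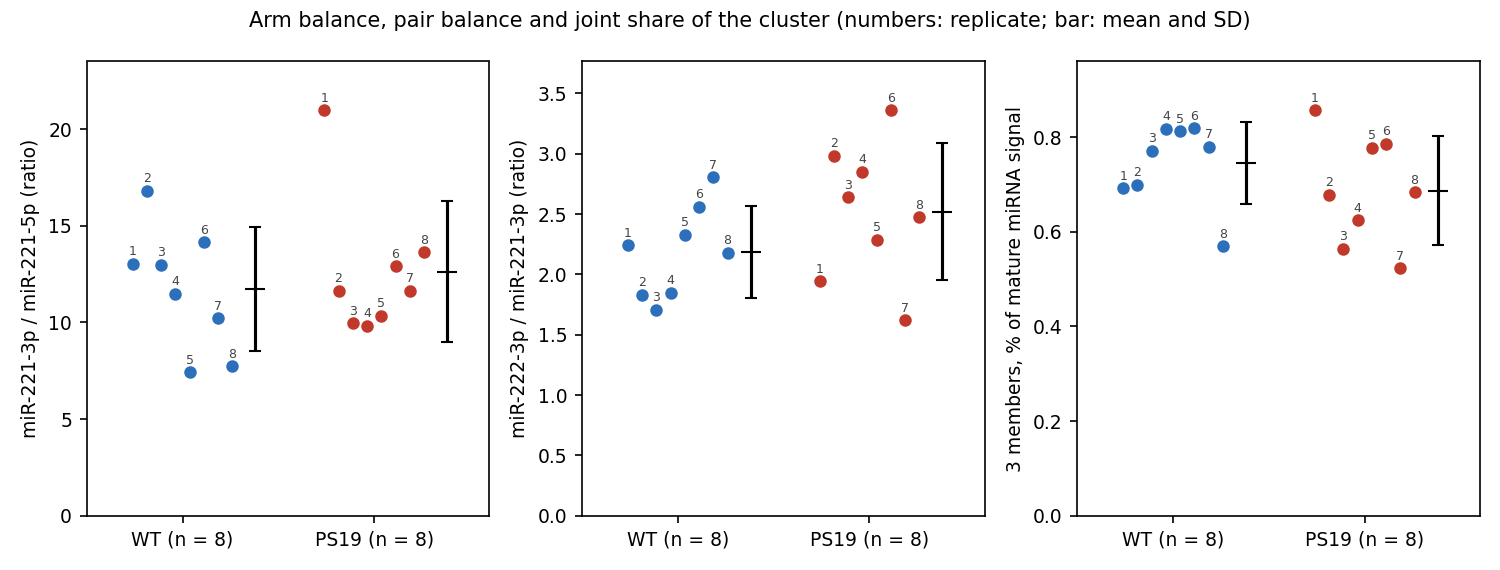
Ratio of miR-221-3p to miR-221-5p, ratio of miR-222-3p to miR-221-3p, and the percent of mature miRNA signal held by the 3 members, in each library, with the mean and SD beside the points. The genotypes overlap in all 3 panels, and PS19 replicate 1 holds the highest arm ratio, 20.99, and the highest joint share, 0.857%.

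The other products of the same hairpins were in the table too. miR-222-5p, the minor arm of miR-222, averaged 243 ± 92.5 normalized counts in PS19 and 321 ± 103 in WT (SD), with a log2 difference of -0.41 ± 0.26 (SE, limma, unadjusted p = 0.127). On the class-scaled values it was -0.36 ± 0.18 (limma, unadjusted p = 0.0574), close in size to miR-221-5p. The rows of the hairpins themselves, mmu-mir-221 and mmu-mir-222, averaged 34.9 and 387 normalized counts over all libraries and gave differences of -0.31 and -0.29 (limma, unadjusted p = 0.372 and 0.289). All 6 rows of the cluster thus had differences below 0 on the deposited scale, none past the test. So did 66.4% of the tested mature miRNAs, and the 6 rows share hairpins and are not independent.

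After class scaling the 5′ arms of the hairpins resembled each other more than either resembled its own 3′ arm. Across 16 libraries the log2 levels of miR-221-5p and miR-222-5p correlated at r = 0.75. miR-221-5p correlated at 0.33 with miR-221-3p and 0.06 with miR-222-3p. miR-222-5p correlated at 0.34 with miR-222-3p and at 0.50 with miR-221-3p of the other hairpin. miR-221-3p and miR-222-3p correlated at 0.38, and miR-222-3p with its own hairpin row at 0.83. On the deposited scale all of these pairs lay between 0.77 and 0.96. There the members also correlated with the other 517 tested mature miRNAs at medians of 0.62 to 0.68, which fell to between -0.08 and 0.13 after class scaling. The points share library and depth, and no test was made.

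The miRNAs whose levels were most like those of each member over the 16 libraries were named by Pearson's r on log2 values. For miR-221-3p these were miR-493-5p (r = 0.97), miR-409-5p (0.96), miR-541-5p (0.95) and miR-300-3p (0.95), all on chromosome 12, and miR-488-3p (0.94) on chromosome 1. The first of them, miR-493-5p and miR-409-5p, were again the nearest after class scaling, at 0.82 and 0.81. For miR-221-5p the nearest were miR-340-5p (0.97) and miR-148b-3p (0.95), also first after class scaling at 0.85 and 0.83. For miR-222-3p they were let-7a-5p (0.93), miR-344d-3p (0.91) and let-7d-5p (0.91), which fell to 0.45, 0.51 and 0.36 after class scaling.

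Markers of vessel cells, where these miRNAs are well described, were set beside the members, and in bulk tissue fewer cells of a type and less RNA per cell cannot be told apart. The endothelial miRNAs miR-126a-3p and miR-126a-5p summed to between 5017 and 28305 normalized counts in PS19 and between 5112 and 27200 in WT, and neither passed the test (2 of 2 below 0). The smooth muscle and pericyte miRNAs miR-143-3p and miR-145a-5p, both below 0, summed to between 10232 and 33429 in PS19 against 12662 to 37192 in WT. miR-143-3p had a log2 difference of -0.44 (limma, unadjusted p = 0.123), and -0.38 on the class-scaled values (unadjusted p = 0.0246, adjusted p = 0.9998). It correlated on that scale at 0.73 with miR-221-5p, at 0.06 with miR-221-3p and at -0.003 with miR-222-3p. miR-145a-5p correlated at 0.41 with miR-221-5p, and the endothelial miR-126a-5p and miR-126a-3p at 0.76 and 0.56. In the same order, these markers correlated with miR-221-3p at 0.21, 0.09 and -0.14. With miR-222-3p they correlated at 0.10, -0.22 and -0.29. The neuronal miRNAs differed among themselves in their correlation with miR-221-5p, with miR-9-5p at 0.71, miR-124-3p at 0.17 and miR-128-3p at -0.088. The part of these cells in the level of miR-221-5p was not tested.

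Of the 3 myeloid miRNAs, the 2 that were tested had differences above 0. miR-155-5p averaged 82.5 ± 51.6 normalized counts in PS19 and 44.3 ± 15.8 in WT (SD), with a log2 difference of 0.78 (limma, unadjusted p = 0.0167, adjusted p = 0.9998). miR-146a-5p had a difference of 0.36 (limma, unadjusted p = 0.294), and miR-223-3p, with means of 2.62 in PS19 and 4.71 in WT, was too low to test. The other arm of its hairpin, miR-223-5p, went the other way. It averaged 5.53 in PS19 and 8.13 in WT, with a difference of -0.47 (limma, unadjusted p = 0.207). After class scaling miR-221-5p correlated with miR-155-5p at -0.32, with miR-146a-5p at 0.14 and with miR-223-3p at 0.63. miR-221-3p gave -0.27, -0.29 and 0.24 with the same 3, and miR-222-3p -0.35, -0.61 and -0.20. Their part in the levels of the members was not tested. None of the tested markers of neurons, red blood cells, oligodendrocytes, choroid plexus, olfactory bulb, or muscle and liver had an unadjusted p-value under 0.05 in limma. Differences were below 0 for all 3 olfactory bulb markers and above 0 for the 2 tested oligodendrocyte and 2 choroid plexus markers. After class scaling, miR-221-5p correlated with the olfactory markers at 0.30 to 0.44. With the tested oligodendrocyte markers miR-219a-2-3p and miR-338-3p it correlated at -0.55 and -0.20.

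A difference below 0 was also the more common direction among other miRNAs of the X chromosome. Besides the members, 90 mature miRNAs were placed there by name, and 36 had a mean of at least 5 normalized counts and were tested. Of these 23 had a difference below 0 and 13 above, with a median of -0.13, beside 66.4% below 0 and a median of -0.13 for all tested mature miRNAs. None had an unadjusted p-value under 0.05 in limma. The most abundant besides the cluster were miR-676-3p at -0.10, miR-1198-5p at 0.17 and miR-361-3p at 0.11.

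**Figure D4:**
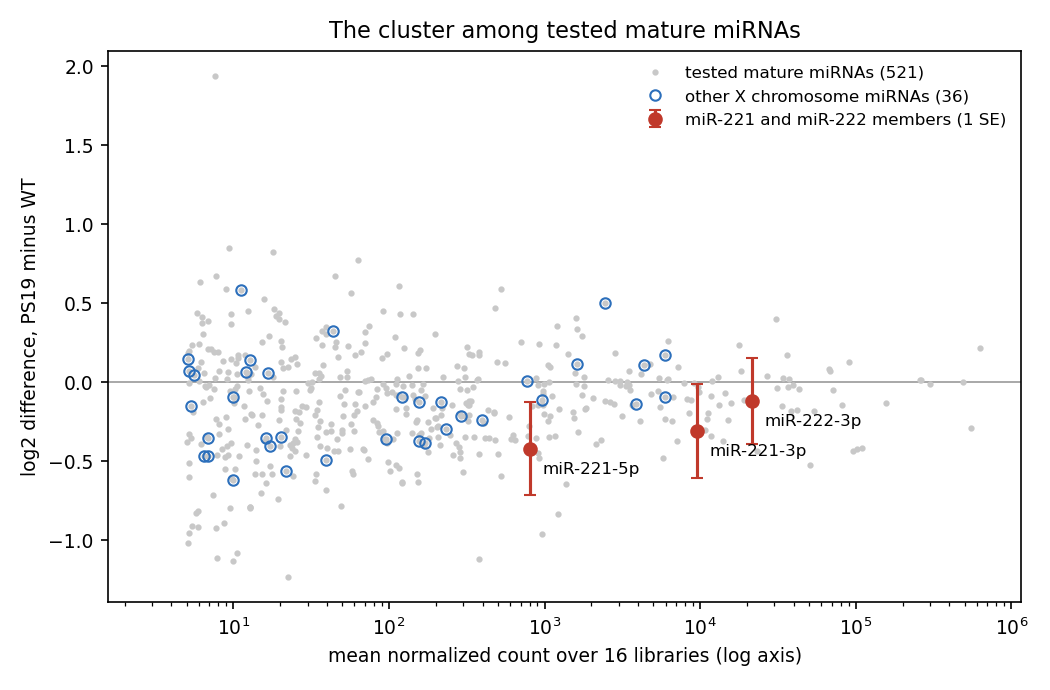
Log2 difference between PS19 and WT (vertical axis) against the mean normalized count (horizontal log axis) for the 521 tested mature miRNAs (grey), the 36 others of the X chromosome (blue circles) and the 3 members (red, with 1 SE). The members lie at -0.42, -0.31 and -0.12, within the spread of miRNAs of like abundance.

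Across analyses the differences of miR-221-3p and miR-221-5p kept their direction. miR-221-5p lay between -0.54 and -0.37 over 12 planned settings, the reported one included, and miR-221-3p between -0.66 and -0.25. miR-222-3p lay between -0.24 and -0.035, the smallest sizes being -0.035 in edgeR and -0.046 in DESeq2. There was no adjusted p-value under 0.717 for any member.

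**Figure D5:**
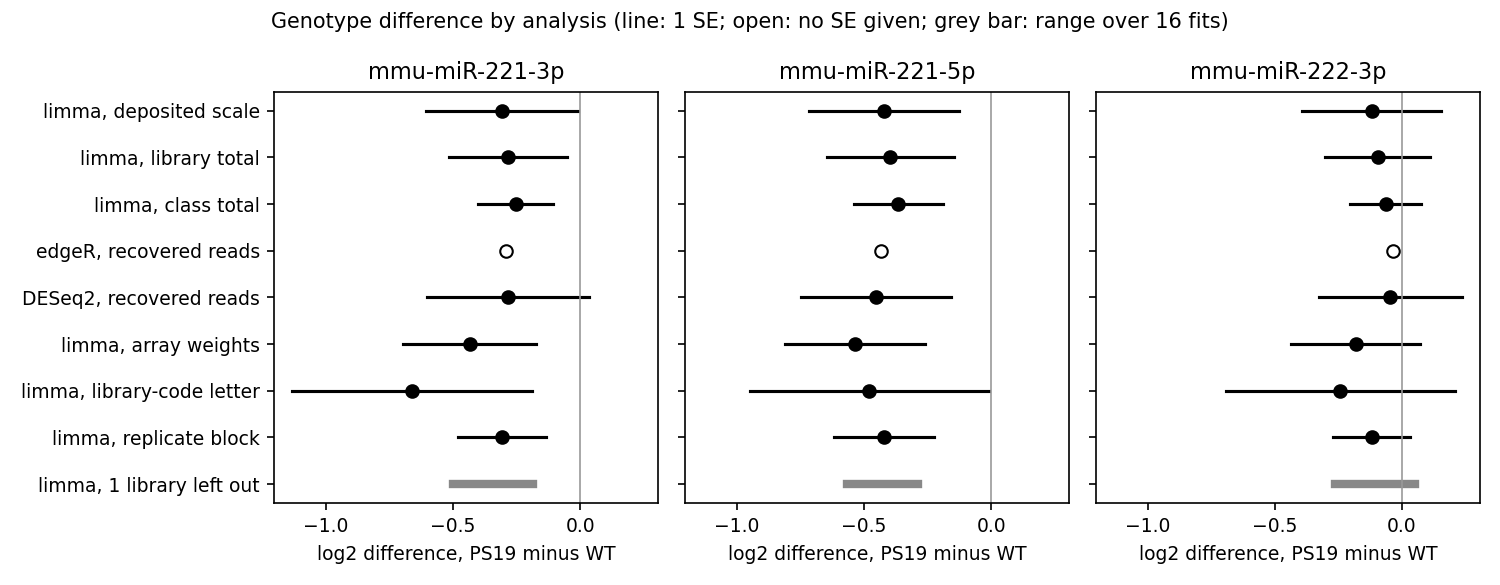
Log2 difference between PS19 and WT for each member (horizontal axis) under 8 analyses, with 1 SE where the tool gave one, and the range over 16 fits that each left out 1 library (grey). miR-221-3p and miR-221-5p lie below 0 in each, and only for miR-222-3p does the grey bar cross 0.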

How the data were processed

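Small RNA libraries were prepared from prefrontal cortex with a NEBNext small RNA kit, 8 from PS19 and 8 from WT mice, and grouped by the genotype in the labels. Per the methods and labels, the authors aligned reads with STAR 2.5.3a within COMPSRA and computed DESeq2 1.42.1 comparisons; the labels give the build as mm10. The deposited signal per library was read counts divided by 1 size factor, and dividing by the smallest step gave whole reads for 100% of values within 0.01 read. In 2 libraries (WT replicates 4 and 6) the step was near 1 and rests on weaker evidence. The authors' mean signal, log2 fold changes, score and p-values of their own comparison in the deposited table were not used. All 16 library columns were used.

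Members, lists and tests were chosen with earlier results of these data known. Values were taken as log2(value + 1), rows with a mean of at least 5 were kept, and genotypes were compared with limma 3.58.1 (R 4.3.3, trend), with Benjamini-Hochberg adjustment over all tested rows. Ratios, the summed level and the share were compared with two-sided exact permutation tests (numpy 2.4.6). Alternatives were pseudocounts of 0.5 and 5, other filters, scaling to the library total or to each small RNA class's own total, edgeR 4.0.16 and DESeq2 1.42.0 on recovered reads, library weights, the library-code letter, a replicate block and leaving out each library. Scripts were tested on simulated data. The text names the 3 members, the other rows of the hairpins, the 5 or fewer most correlated mature miRNAs, marker miRNAs, and the most abundant of the X chromosome. Another planned list of miRNAs is not reported here. Sequences came from RefSeq (1069 of 1241 mature rows matched by name) and positions from RefSeq and GENCODE M21.

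Replicate numbers are shared between the groups. Deviations of libraries with the same number correlated at 0.0446 to 0.456 (median 0.189, against -0.028 between different numbers). The rule set for pairing asked for over 0.1 in every pair. It was met in 6 of 8, and the labels name no shared litter or batch, so the block stayed an alternative.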

Additional observations from a re-analysis of the deposited data

Results flagged for a closer look

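Of 26 group values examined for a single library far from the rest (Dixon's test, 95% level), 4 met the criterion. The values were not log-transformed. Chance would give about 1.3 were they independent, but they share members, so no excess over chance can be read from this. In 3 of the 4 the library was PS19 replicate 1, and its miR-221-3p count enters all 3. This library held 19738 normalized counts of miR-221-3p, against 9399 in the next PS19 library. Its ratio of miR-221-3p to miR-221-5p was 20.99, against 13.6 in the next. Its summed level of miR-221-3p and miR-222-3p was 58157, against 34634. The fourth was PS19 replicate 5, which held 222.01 reads of miR-221-5p per 1000000 mature miRNA reads, against 165.8 in the next PS19 library. PS19 replicate 1 had 32.0% mature miRNA in its signal, the highest of the PS19 libraries, and 14.8 M reads. Per 1000000 mature miRNA reads its level of miR-221-3p was 2862, against 2297 in the next PS19 library, and no longer met the criterion, its gap being 0.417 of the range.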

How the results depend on the processing

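Over all settings tried, no member reached an adjusted p-value under 0.05, and the lowest was 0.717. The number of small RNAs with an unadjusted p-value under 0.05 was 241 and became 680 with no filter, 136 at a mean of at least 20, 418 with library weights, 419 with the replicate block and 124 with the library-code letter as a term. The number past the adjusted threshold was 0 in limma, 0 with edgeR and 15 with DESeq2. With the replicate number as a block in limma, the adjusted p-values of miR-221-3p, miR-221-5p and miR-222-3p were 0.796, 0.717 and 0.921 at unchanged differences of -0.31, -0.42 and -0.12, and the unadjusted p-value of miR-221-5p was 0.0498. Without a stated pairing, 2 of 8 PS19 and 2 of 8 WT libraries correlated best with their own number. Leaving out 1 library at a time, differences ran from -0.50 to -0.19 for miR-221-3p, -0.57 to -0.29 for miR-221-5p and -0.26 to 0.050 for miR-222-3p, and counts of unadjusted p-values under 0.05 from 167 to 322. The ratios ran from 0.0013 to 0.19 (arms of miR-221) and -0.28 to -0.12 (miR-221-3p over miR-222-3p), the summed level from -0.33 to -0.032 and the share from -0.083 to -0.035 percentage points. The arm ratio turned to -0.071 as a difference of medians. miR-222-3p turned to 0.050 without PS19 replicate 7, and to 0.019 without it after class scaling, a setting chosen after seeing the data. The causes were not tested. Class-scaled values with 1 library left out ran from -0.34 to -0.21, -0.44 to -0.27 and -0.12 to 0.019 for miR-221-3p, miR-221-5p and miR-222-3p.

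Counting error was at most 4.88% of a member's value and covers sampling of reads only. With 8 libraries a group, the interval of miR-221-5p reached -1.03 on the log2 scale. Sex, litter and the meaning of the library-code letter were not given by library.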
